A study of Rattus norvegicus with 88 samples.

Results

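The genes described here are 9 components of the mammalian circadian clock, measured in orbitofrontal cortex from outbred heterogeneous stock (HS) rats. They were taken by their Ensembl identifiers, and all 9 had a row in the table of 17123 genes: Per1 (ENSRNOG00000007387), Per2 (ENSRNOG00000020254), Per3 (ENSRNOG00000018413), Dbp (ENSRNOG00000021027), Nr1d1 (ENSRNOG00000009329), Nr1d2 (ENSRNOG00000046912), Arntl (ENSRNOG00000014448), Clock (ENSRNOG00000002175) and Npas2 (ENSRNOG00000013408). HS rats are an outbred population descended from inbred founder strains, and these animals were kept in groups and had received no drug and no behavioral testing. RNA from dissected tissue of each brain was sequenced once, and 80 libraries had a column, 41 from males and 39 from females. Rat batch, a number in the sample labels, was 2 for 15 rats (11 males, 4 females), 3 for 22 rats (10 males, 12 females), 4 for 26 rats (12 males, 14 females), 5 for 1 female and 6 for 16 rats (8 males, 8 females). The labels do not say what a rat batch is. The time of day at which each brain was collected and the age of each single rat are not given in the sources used here, and the study states age as a mean for each sex. Over all 88 samples the labels count more males than females and the study's methods the reverse, so the sex of a rat, and the sign of any sex difference, rests on the labels.

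The clock is a feedback loop of transcription. ARNTL (also called BMAL1) pairs with CLOCK, or in the forebrain also with NPAS2, and the pair switches on genes that carry an E-box, among them the period genes, Dbp and the nuclear receptors Nr1d1 and Nr1d2 (REV-ERB alpha and beta). PER proteins then block the pair, and REV-ERB proteins repress Arntl, so over a day the levels of Dbp and Nr1d1 in most tissues rise and fall out of step with that of Arntl. Per1, Per2, Per3, Dbp, Nr1d1 and Nr1d2 are called the repressor arm below, although DBP is itself an activator that works through D-boxes, and Arntl, Clock and Npas2 are called the activator arm.

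The short sequences through which these proteins work were looked for in the RefSeq promoter windows of the rat assembly GRCr8, which run from 250 bases before to 50 bases after an annotated start. All 9 genes were matched, Arntl under its newer symbol Bmal1, with 11 windows. The letters searched on both strands were CACGTG (E-box), CACGTT (E-prime box), TTATGTAA and TTACGTAA (D-box), TAGGTCA (bound by REV-ERB and ROR) and TGACGTCA (cyclic AMP response element), and none of these matches overlapped another. Per2, Nr1d1 and Arntl held a match, and the other 6 genes held none, which says only that these letters were not in these windows. The only window of Per1, chr10:54304126-54304425 on the plus strand, lay inside the gene, which RefSeq begins at base 54299002. The only windows of Per3 and Npas2 also lay inside their genes. For Per1, Per3 and Npas2 the bases before the gene were therefore not searched. Of all 33469 windows in the table, 6.42% held CACGTG, 4.83% CACGTT, 0.893% TTATGTAA, 0.120% TTACGTAA, 2.63% TAGGTCA and 1.83% TGACGTCA. The 5 matches are printed 5′ to 3′ on the strand of the gene, in genes whose levels are compared below. Their letters are those searched for, and whether they act as sites of the loop was not tested. They are a description of the reference sequence, and binding was not measured.

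The D-box in Per2 is shown in the part of the window outside the gene, chr9:99497070-99497243 on the minus strand, and the capitals mark the D-box.

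Per2 upstream: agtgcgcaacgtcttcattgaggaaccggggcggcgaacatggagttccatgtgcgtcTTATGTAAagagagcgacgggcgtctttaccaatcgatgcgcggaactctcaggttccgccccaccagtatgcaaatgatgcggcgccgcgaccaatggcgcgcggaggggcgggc

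The other match in Per2 lay inside the gene as RefSeq places it, so only 30 bases around it are shown, chr9:99497038-99497067 on the minus strand, with the E-prime box in capitals.

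Per2 site: aacgcgcgcggtCACGTTttccactatgtg

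The upstream window of Nr1d1, chr10:84231813-84232062 on the minus strand, held an E-prime box read on the opposite strand, which therefore appears in capitals as its reverse complement.

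Nr1d1 upstream: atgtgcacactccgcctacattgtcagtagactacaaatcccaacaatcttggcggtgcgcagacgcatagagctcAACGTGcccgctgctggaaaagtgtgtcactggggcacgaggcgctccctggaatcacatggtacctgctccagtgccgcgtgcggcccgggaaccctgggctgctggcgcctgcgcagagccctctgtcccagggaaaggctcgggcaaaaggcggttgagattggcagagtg

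A second annotated start of Nr1d1 lies inside the gene, and the 30 bases around the E-box before it, chr10:84229628-84229657 on the minus strand, carry that E-box in capitals.

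Nr1d1 site: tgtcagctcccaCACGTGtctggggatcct

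For Arntl the match was the letters that REV-ERB and ROR proteins are known to bind, shown in capitals within the last 30 bases before the start, chr1:176766298-176766327 on the plus strand.

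Arntl site: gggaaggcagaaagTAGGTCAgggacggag

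The deposited values are log2 of an upper quartile scaled read count plus 1, and counts below are these values turned back. The depth, meaning reads counted over the genes of the table, was inferred from the smallest step between values. It was 5.67 to 25.6 M reads per library (mean 18.0 ± 3.66 M, SD, n = 80, M for mega). In 76 of the 80 libraries that step was separated from other steps by a log-likelihood over 10. Levels are not compared between genes, because gene lengths were not used. In bulk tissue, fewer cells of a type and less RNA per cell cannot be told apart. The labelled tissue was not checked against marker genes, because the table gives identifiers without symbols.

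All 9 genes were read in every library, and the lowest scaled count of any of them was 308, in Per3. Per1, whose transcription is also known to respond quickly to stimuli, ranged most: 595 in the lowest rat, 2678 in the median and 4858 in the highest, an 8.16-fold range. The lowest value was that of 1 library, replicate 9 of batch 3, and without it the range of Per1 was 914 to 4858 (5.32-fold), a range chosen after seeing the data. Nr1d1 had 665, 1923 and 3537 (5.32-fold). Dbp, the output gene, had 1331, 3193 and 4949 (3.72-fold), and Per3 had 308, 675 and 1128 (3.66-fold). These 4 genes differed most among rats that had all been left untreated.

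Per2 ran from 1140 through 2057.5 to 3276 (2.87-fold). Nr1d2 was the steadiest of the repressor arm, from 1862 through 2731.5 to 3541 (1.90-fold). The activator arm had narrow ranges as well, with Arntl at 465, 584 and 979 (2.11-fold), Clock at 1071, 1579.5 and 2163 (2.02-fold) and Npas2 at 1455, 1931.5 and 2662 (1.83-fold).

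The range reflects more than sex and batch. After both were fitted, the SD among rats on the log2 scale was 0.52 for Nr1d1, 0.51 for Per1, 0.43 for Dbp, 0.29 for Per2, 0.25 for Per3 and 0.23 for Nr1d2, and 0.20 for Arntl, 0.19 for Clock and 0.16 for Npas2. Genes whose mean level lay within 0.5 log2 of a clock gene had a median SD of 0.13 to 0.16. Each of the 9 genes was above that median, and 4 of them (Per1, Per2, Dbp and Nr1d1) were above the 95th percentile. Per1 had a larger SD than 99.7% of 1280 genes of similar level, Nr1d1 than 99.6% of 1578 and Dbp than 99.1% of 1102. At the other end, Npas2 exceeded 74.8% of 1485 such genes, Arntl 77.8% of 2394 and Clock 83.0% of 1750. Sex and batch together took up 60.0% of the variance of Per3 but 5.81% of that of Nr1d1. These are descriptions, with no test.

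**Figure D1:**
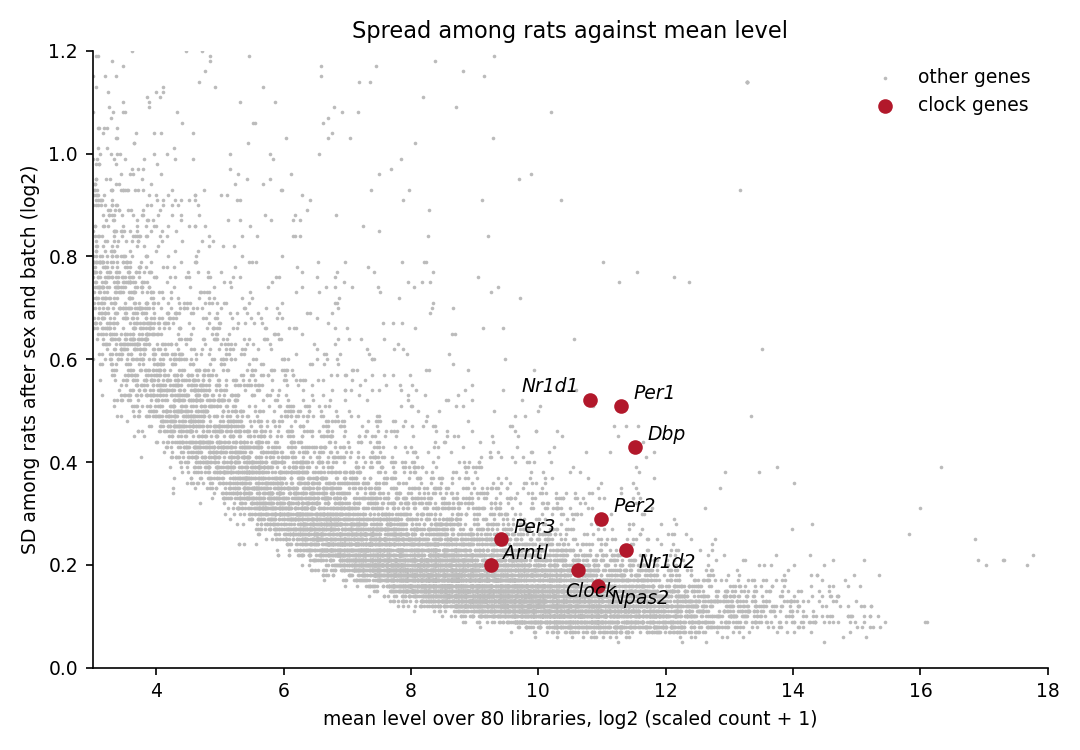
SD of each gene among 80 rats after sex and rat batch (vertical axis, log2) against its mean level (horizontal axis, log2 of scaled count plus 1). Grey points are the genes with a mean of at least 3, with the axis ending at an SD of 1.2, and red points are the 9 clock genes. Nr1d1, Per1 and Dbp stand at 0.52, 0.51 and 0.43, far above genes of the same level, while Clock and Npas2 lie within the grey band at 0.19 and 0.16.

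Rat batch was compared first, over batches 2, 3, 4 and 6, with sex in the model and without the single rat of batch 5. Of the 9 clock genes, 7 differed between batches (limma moderated F test, Benjamini-Hochberg adjustment over all genes), against 64.7% of all genes tested, so the clock genes were called about as often as genes at large. Nr1d1 (adjusted p = 0.987) and Nr1d2 (adjusted p = 0.510) were the 2 that did not pass. The batch means of Nr1d1 spanned 0.05 on the log2 scale, against an SD within batches of 0.41 to 0.60.

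Per3 separated the batches most. Its scaled counts had a lowest, median and highest value of 410, 563 and 787 in batch 2, of 376, 567 and 788 in batch 3, of 526, 814.5 and 1128 in batch 4 and of 614, 862.5 and 1031 in batch 6. The medians of batches 4 and 6 exceeded the highest value of batches 2 and 3, although the ranges overlapped. On the log2 scale the means were 9.15 ± 0.24 (SD, n = 15) in batch 2, 9.16 ± 0.24 (n = 22) in batch 3, 9.67 ± 0.25 (n = 26) in batch 4 and 9.69 ± 0.24 (n = 16) in batch 6 (limma adjusted p = 4.97e-12 for the F test). Batch 4 exceeded batch 2 by 0.51 (SE 0.08, limma adjusted p = 8.93e-08), where 48.6% of all genes passed, and batch 3 by 0.51 (SE 0.07, limma adjusted p = 5.13e-09), where 42.9% passed. Batches 2 and 3 differed by 0.00 (SE 0.08, limma adjusted p = 0.998) in a contrast that 9.79% of genes passed.

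Per1 and Per2 were highest in batch 4. Per2 had a median of 2492 scaled counts there (1621 to 3276), against 1910 in batch 2 (1514 to 2677), 1954 in batch 3 (1238 to 2567) and 1665 in batch 6 (1140 to 2790). The ranges of the batches overlapped. Per2 fell by 0.46 from batch 4 to batch 6 (SE 0.09, limma adjusted p = 0.000238), and Per1 fell by 0.56 (SE 0.16, limma adjusted p = 0.0110), in a contrast that 13.6% of genes passed. Without batch 4, neither Per1 (adjusted p = 0.288) nor Per2 (adjusted p = 0.449) passed among the remaining batches. Per1 was not separated between batches 4 and 2 (0.21, SE 0.16, limma adjusted p = 0.306). The batch test of Per1 did not pass in males alone (limma adjusted p = 0.0682) or females alone (limma adjusted p = 0.199).

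Batch 6 differed from each of batches 2, 3 and 4 in Dbp and in Arntl. Dbp had a median of 2379 scaled counts in batch 6 (1331 to 3753), against 3286 (2032 to 4631), 3467 (1470 to 4949) and 3277.5 (1463 to 4142) in batches 2, 3 and 4, with wide overlap. It was lower in batch 6 than in batch 3 by 0.50 (log2, SE 0.14, limma adjusted p = 0.00135), and 50.9% of genes passed that contrast. Arntl, whose protein pairs with CLOCK or NPAS2, had a median of 729.5 in batch 6 (524 to 979), against 569 (506 to 775), 588.5 (465 to 863) and 548.5 (493 to 742). It was higher in batch 6 than in batch 4 by 0.31 (SE 0.06, limma adjusted p = 0.000516). Clock was higher in batch 6 than in batch 3 by 0.31 (SE 0.06, limma adjusted p = 1.17e-05), and Npas2 was higher in batch 6 than in batch 2 by 0.24 (SE 0.06, limma adjusted p = 0.000377), where 53.8% of genes passed. Batches 6 and 4 were not separated in Clock (0.12, SE 0.06, limma adjusted p = 0.173) or Npas2 (0.10, SE 0.05, limma adjusted p = 0.206). Without batch 6, Dbp (adjusted p = 0.649) and Arntl (adjusted p = 0.240) no longer passed, while Clock did (adjusted p = 0.00604). Npas2 was lost without batch 6 (adjusted p = 0.0507) and also without batch 2 (adjusted p = 0.121). Within a sex, the batch test of Dbp did not pass in males alone (limma adjusted p = 0.167). Those of Arntl (limma adjusted p = 0.0727) and Npas2 (limma adjusted p = 0.504) did not pass in females alone.

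Batch is tied to another feature of the table. The columns run in 3 stretches, the first with 14 rats of batch 2 and 7 of batch 3, the next with 1 of batch 2 and 12 of batch 3, and the last with 3 of batch 3 and all rats of batches 4, 5 and 6. With the stretch as a further term, 4 of the 9 genes passed, and Per3 (adjusted p = 0.114), Dbp (adjusted p = 0.0838) and Clock (adjusted p = 0.145) were lost. The span of their batch means in that fit was 0.45 for Per3, 0.55 for Dbp and 0.31 for Clock, against 0.53, 0.50 and 0.31 without the stretch. The 3 rats of batch 3 in the last stretch had a Per3 mean of 9.23 ± 0.34, against 9.15 ± 0.30 (n = 7) and 9.14 ± 0.19 (n = 12) for batch 3 in the other stretches. In batch 3, Clock had a mean of 10.36 ± 0.23 in the middle stretch (n = 12) and 10.65 ± 0.18 in the first (n = 7). The part of the stretch in the batch differences was not tested further.

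**Figure D2:**
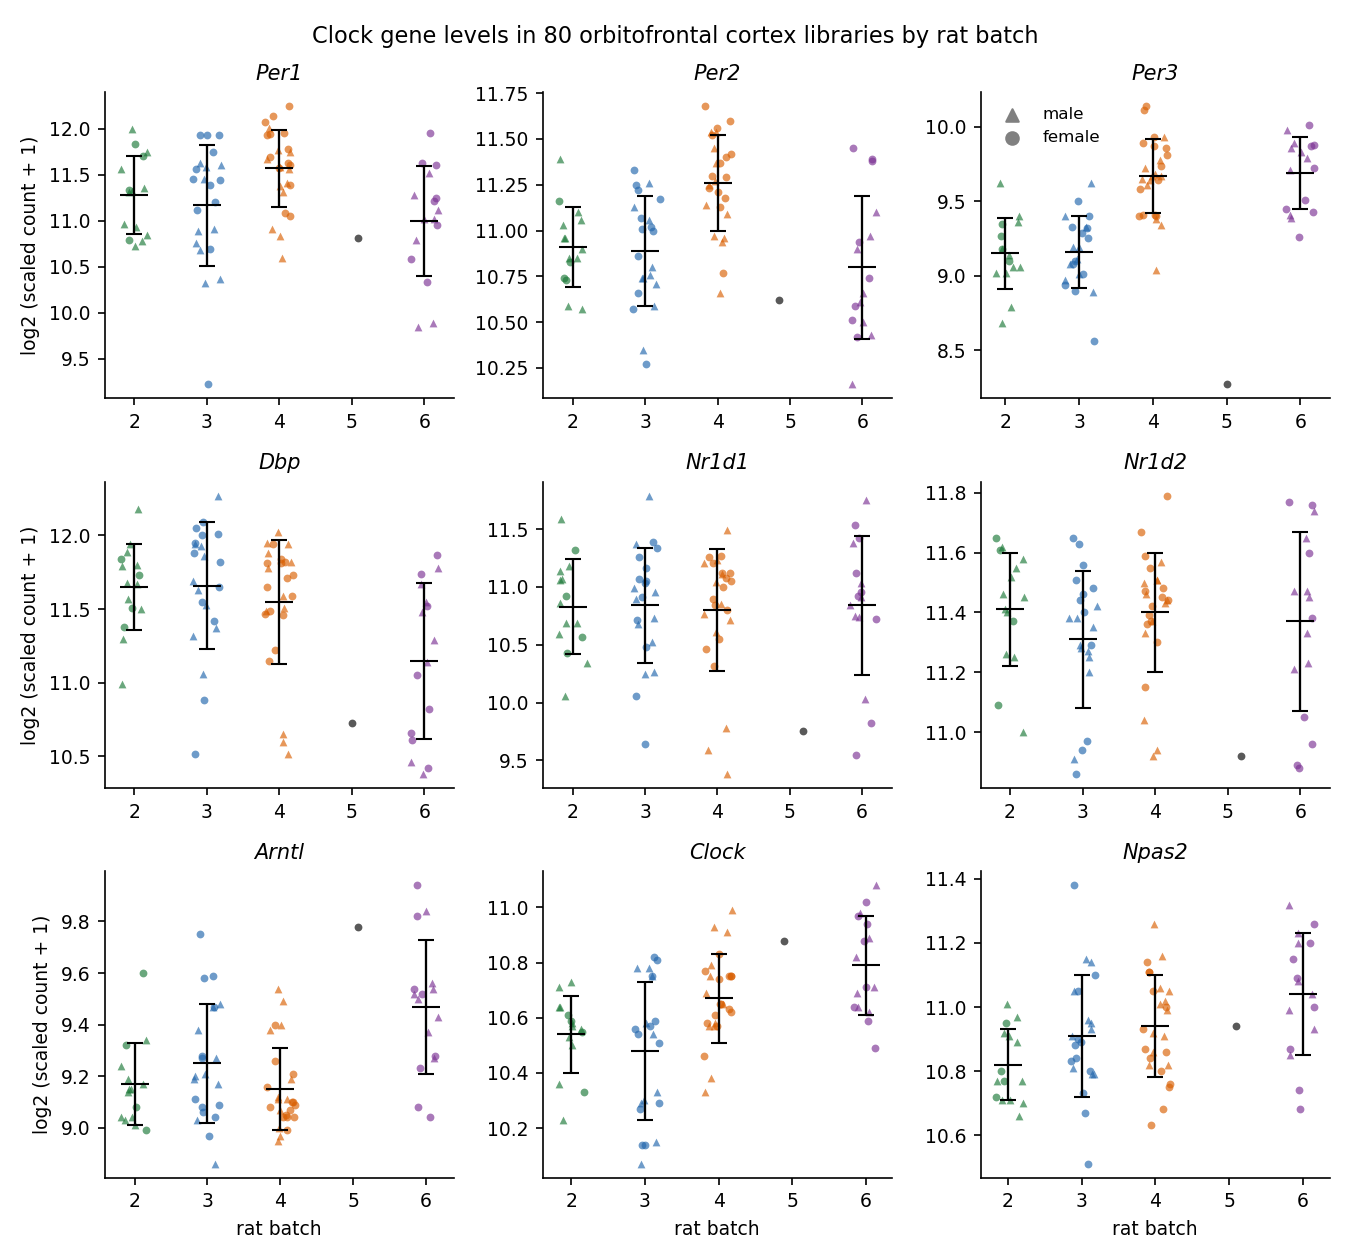
Level of each clock gene (vertical axes, log2 of scaled count plus 1, each panel on its own scale and not starting at 0) by rat batch (horizontal axes) in 80 libraries. Triangles are males, circles females, and black bars are the mean ± SD of a batch, except for the single rat of batch 5. Per3 sits higher in batches 4 and 6, with means of 9.67 and 9.69, Arntl is highest in batch 6 at 9.47, and Nr1d1 is level across batches 2, 3, 4 and 6.

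The sexes were compared with batch in the model. None of the 9 genes passed (limma, adjusted over all genes), where 20 of all genes, or 0.117%, did, and 2 of the 9 had an unadjusted p under 0.05. The male minus female difference of Per1 was -0.30 (log2, SE 0.11, limma p = 0.0102, adjusted p = 0.510), with means of 11.15 ± 0.52 in males (n = 41) and 11.43 ± 0.58 in females (n = 39). By batch it was -0.19, -0.28, -0.32 and -0.39 in batches 2, 3, 4 and 6, so the male mean was the lower in each. That of Per2 was -0.14 (SE 0.06, limma p = 0.0356, adjusted p = 0.646). With 20 principal components of the table in place of batch, the sign turned, to 0.66 for Per1 (limma adjusted p = 0.605) and 0.41 for Per2 (limma adjusted p = 0.679). The components were taken with sex left in and can hold part of a sex difference, so that fit cannot settle the sign. For the other 7 genes the difference lay between -0.05 and 0.07. The interaction of sex with batch did not pass for any of the 9 genes (limma unadjusted p = 0.252 to 0.966), and 0.00% of all genes passed that test.

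The relation of the arms was then followed from rat to rat. For each clock gene, its level was added to a model of every other gene with sex and batch, and a pair was called where it passed after adjustment over 17122 genes in both directions. Of the 36 pairs, 23 were called. In the repressor arm 11 of 15 pairs were called and all 11 were positive, in the activator arm 2 of 3 were called and both were positive, and between the arms 10 of 18 were called and all 10 were negative. Among all genes, the share related to a given clock gene was 4.38% for Per1, 6.54% for Per2, 12.6% for Per3, 17.4% for Dbp, 17.4% for Nr1d1, 15.6% for Nr1d2, 1.38% for Arntl, 33.7% for Clock and 15.2% for Npas2. In 19 of the 23 called pairs the sign was the same in batches 2, 3, 4 and 6. All correlations below are of values left after sex and batch, with 100000 two-sided permutations within batch, whose smallest possible p is 1e-05.

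Dbp and Nr1d1 were each related to all other clock genes except Per2. Their own Pearson r was 0.80 (Spearman rho 0.78, permutation p = 1e-05 for each, r = 0.76 without the 2 rats farthest from the median). Each of Dbp and Nr1d1 was the second most positively related of 17122 genes for the other (limma adjusted p = 3.64e-15 for the larger of the 2 directions). Within batches, r was 0.85, 0.95, 0.94 and 0.47 in batches 2, 3, 4 and 6, positive in 4 of 4. Dbp and Nr1d2 had r = 0.68 (rho 0.49, permutation p = 1e-05 for r and 2e-05 for rho, r = 0.63 without 2 rats), with 0.58, 0.66, 0.72 and 0.69 by batch. Per3 was related to Dbp (r = 0.61, rho 0.51, permutation p = 1e-05 and 2e-05) and to Nr1d2 (r = 0.62, rho 0.57, permutation p = 1e-05 for each). Without a batch term the r of Per3 and Dbp was 0.22 and no longer passed (limma adjusted p = 0.114).

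Across the arms, the r largest in size was that of Dbp and Clock, with r = -0.73 (rho -0.74, permutation p = 1e-05 for each, r = -0.71 without 2 rats). The slope of Clock on Dbp was -0.32 log2 per log2 (SE 0.04). Within batches r was -0.56, -0.72, -0.81 and -0.82. Nr1d1 and Clock gave r = -0.64 (rho -0.61, permutation p = 1e-05 for each), while Nr1d2 and Clock gave -0.22 and did not pass (limma adjusted p = 0.178). With 20 principal components of the whole table in place of batch, these calls were lost, at r = -0.23 for Dbp and Clock (limma adjusted p = 0.578) and 0.11 for Nr1d1 and Clock (limma adjusted p = 0.890), and so was that of Dbp and Nr1d1 (r = 0.48, limma adjusted p = 0.0582).

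Arntl, the gene that REV-ERB proteins repress, was related to 126 genes negatively and to 110 positively. Of the genes that went down where Arntl went up, Dbp was the first of 17122 (r = -0.65, rho -0.52, permutation p = 1e-05 for each, limma adjusted p = 8.69e-07), Nr1d2 the third (r = -0.63, rho -0.46) and Per3 the seventh (r = -0.57, rho -0.51). Nr1d1 was 35th, and Per1 (768th) and Per2 (959th) were not called. On the positive side Npas2 was 22nd and Clock, not called, 400th. The r of Dbp and Arntl was -0.65, -0.50, -0.73 and -0.80 in batches 2, 3, 4 and 6, and that of Nr1d2 and Arntl was -0.74, -0.56, -0.56 and -0.82. Nr1d1 and Arntl gave r = -0.46 (rho -0.34, permutation p = 5e-05 and 0.00275), ranging from -0.72 in batch 4 to -0.17 in batch 6. That call was lost on ranked residuals (limma adjusted p = 0.140), with 20 principal components (r = -0.26, limma adjusted p = 0.589), without batch 2 (0.0530) and without batch 4 (0.285). The call of Per3 and Arntl was lost without a batch term (r = -0.30, limma adjusted p = 0.129). In males alone (n = 41) Arntl lost its calls with Dbp (r = -0.62, limma adjusted p = 0.136) and Nr1d2 (r = -0.51, limma adjusted p = 0.322). Those with Per3 (r = -0.52, limma adjusted p = 0.322) and Nr1d1 (r = -0.49, limma adjusted p = 0.345) were lost there too. In females alone that with Nr1d1 was lost (r = -0.45, limma adjusted p = 0.180).

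Npas2, the forebrain partner of ARNTL, was lower where Nr1d2 was higher (r = -0.61, rho -0.55, permutation p = 1e-05 for each) and where Dbp was higher (r = -0.60, rho -0.52, permutation p = 1e-05 for each). It rose with Clock (r = 0.48, rho 0.46, permutation p = 4e-05 and 5e-05) and with Arntl (r = 0.46, rho 0.35, permutation p = 9e-05 and 0.00278). The call of Npas2 with Nr1d2 was lost in males alone (r = -0.53, limma adjusted p = 0.0519). That with Clock was lost with 20 principal components (r = 0.34, limma adjusted p = 0.285), without batch 3 (0.0946) and in females alone (0.101). The call of Npas2 with Arntl was lost on ranked residuals (limma adjusted p = 0.136), with 20 principal components (0.0627), without batch 4 (0.0575) and without batch 6 (0.0634). In males alone the r of Npas2 and Arntl was 0.25, and the call was lost there as well (limma adjusted p = 0.701). The call of Npas2 with Nr1d1 (r = -0.38) was lost on ranked residuals (limma adjusted p = 0.0619) and with 20 principal components (r = -0.16, limma adjusted p = 0.798). It was also lost without batch 3 (limma adjusted p = 0.205), without batch 4 (0.130), in males alone (0.105) and in females alone (0.235). Arntl and Clock gave r = 0.29 and were not called (limma adjusted p = 0.193).

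**Figure D3:**
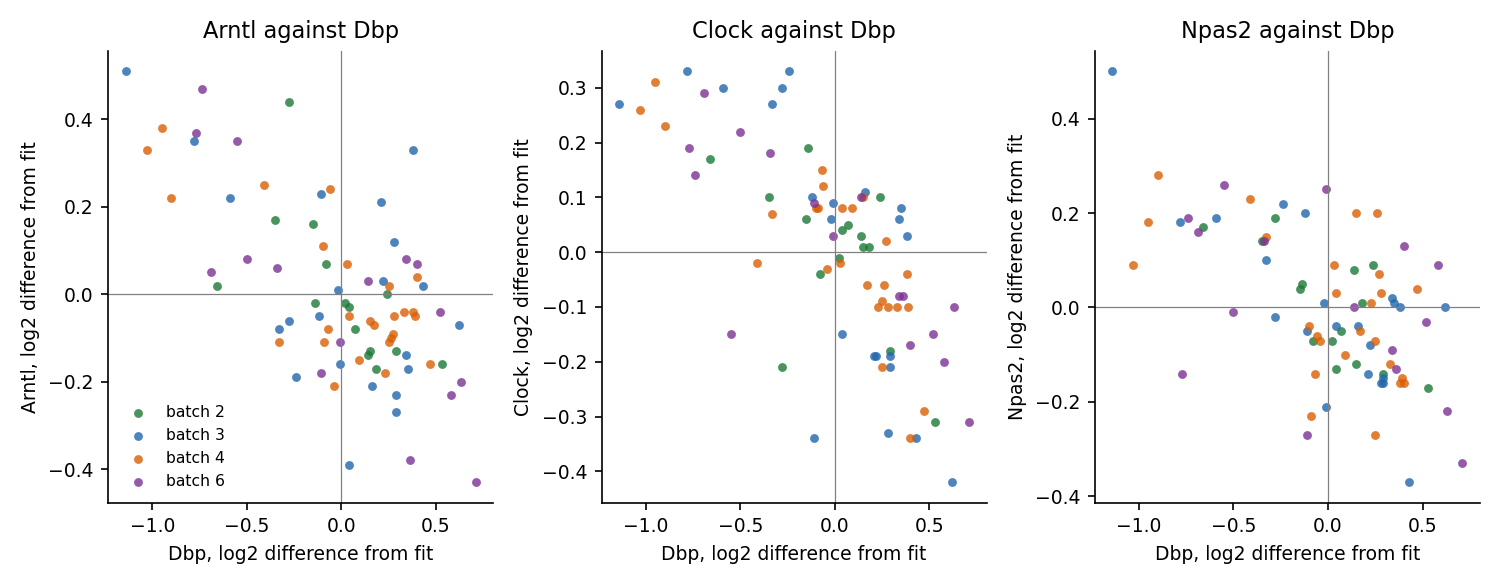
Arntl, Clock and Npas2 (vertical axes) against Dbp (horizontal axes) in the 79 rats of batches 2, 3, 4 and 6, each as the log2 difference from the value fitted for sex and batch. Points are rats colored by batch, and the clouds slope down in all 3 panels, with r of -0.65, -0.73 and -0.60 over the 80 rats.

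Per2 stood outside this pattern. It was related to Per1 (r = 0.52, rho 0.47, permutation p = 3e-05 and 1e-05) and to Per3 (r = 0.43, rho 0.43, permutation p = 0.00018 and 0.0002), its fellow period genes. The call with Per1 was lost with 20 principal components in place of batch (r = 0.36, limma adjusted p = 0.238) and in males alone (r = 0.31, limma adjusted p = 0.468). That with Per3 was lost without batch 3 (limma adjusted p = 0.257), without batch 4 (0.0601), in males alone (0.241) and in females alone (0.0917). The r of Per2 was 0.04 with Dbp, -0.20 with Nr1d1, 0.14 with Nr1d2, -0.24 with Arntl, 0.22 with Clock and -0.14 with Npas2, and none of these passed. In the fit with 20 principal components in place of batch, the relation of Per2 to Dbp was 0.54 (limma adjusted p = 0.00362) and to Nr1d2 0.53 (limma adjusted p = 0.00580). To Arntl it was -0.55 (limma adjusted p = 0.00296) and to Npas2 -0.51 (limma adjusted p = 0.0222). Without a batch term, of the relations outside the period genes only that to Arntl passed (r = -0.40, limma adjusted p = 0.0184). The place of Per2 thus depended on the terms of the fit.

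The mean standardized level of the repressor arm and that of the activator arm had r = -0.71 (rho -0.60) over 80 rats, and -0.54, -0.73, -0.71 and -0.91 in batches 2, 3, 4 and 6. No p is given, since the score rests on genes chosen with earlier results known. A first principal component of the 9 genes held 49.5% of their variance, with loadings of 0.44 for Dbp, 0.38 for Nr1d1 and Nr1d2, 0.34 for Per3, 0.26 for Per1 and 0.10 for Per2 against -0.35 for Arntl, -0.33 for Npas2 and -0.30 for Clock. A second held 18.5% and was led by Per2 at -0.71, then Clock at -0.42 and Per1 at -0.34. After sex and batch, the r of the clock genes with log2 depth lay between -0.11 and 0.15, and a depth term changed none of the 36 calls.

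**Figure D4:**
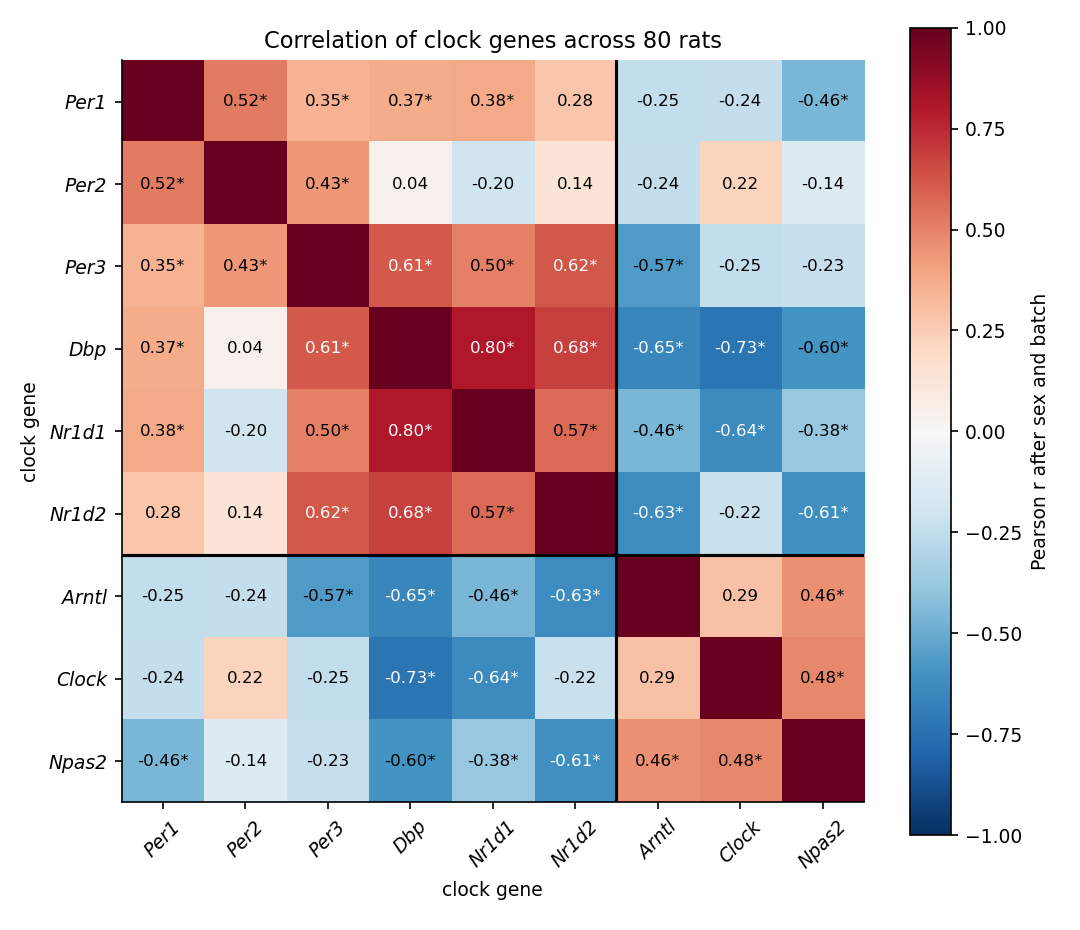
Pearson r between each 2 of the 9 clock genes over 80 rats after sex and batch, from -1 (blue) to 1 (red), with a star where the pair passed in both directions. Black lines part the repressor arm (first 6 genes) from the activator arm (last 3). The starred pairs between the arms run from -0.38 to -0.73, and the row of Per2 is pale outside the period genes.

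Per1 behaved differently from batch to batch. Over all rats it was related to Per3 (r = 0.35), Dbp (r = 0.37), Nr1d1 (r = 0.38) and Npas2 (r = -0.46) besides Per2. In batches 2, 3 and 4 its r with Dbp was 0.66, 0.71 and 0.76, but in batch 6 it was -0.47. With Per3 it was 0.76, 0.66 and 0.58 against -0.60, with Nr1d1 0.76, 0.66 and 0.71 against -0.43, and with Nr1d2 0.70, 0.63 and 0.59 against -0.49. The slope of Dbp on Per1 was 0.80 (SE 0.15) in batch 4 and -0.43 (SE 0.23) in batch 6.

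The difference between batches was tested as an interaction of the level of Per1 with batch, a test added after these values had been seen. It passed in both directions for Per3 (limma adjusted p = 0.00177 for the larger), Dbp (limma adjusted p = 0.00137), Nr1d2 (limma adjusted p = 0.0103) and Nr1d1 (limma adjusted p = 0.0155). Of all genes, the relation differed between batches for 1.77% with Per1, 0.00% with Per2, 0.409% with Per3, 0.298% with Dbp, 0.216% with Nr1d1, 0.111% with Nr1d2, 0.0117% with Arntl, 0.128% with Clock and 0.00% with Npas2. The mirror image with Arntl, -0.61, -0.47 and -0.58 against 0.44, did not pass (limma adjusted p = 0.312). Per1 and Per2 stayed positive in each batch, at 0.23, 0.70, 0.38 and 0.54. Without the 16 rats of batch 6, Per1 was related to Nr1d2 as well (r = 0.62, limma adjusted p = 1.53e-05), and to Arntl (r = -0.52, limma adjusted p = 0.00835) and Clock (r = -0.42, limma adjusted p = 0.0191).

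A single library weighed on the relations of Per1. Replicate 9 of batch 3, a female, had the lowest Per1 of all 80 rats (595 scaled counts) and the lowest Nr1d2 (1862), was the lowest of the 22 rats of its batch in all 6 genes of the repressor arm, and was the highest of its batch in Arntl (863) and Npas2 (2662). Without it 19 pairs were called, and Per1 lost Per3 (r = 0.24, limma adjusted p = 0.274), Dbp (r = 0.26, limma adjusted p = 0.213), Nr1d1 (r = 0.29, limma adjusted p = 0.150) and Npas2 (r = -0.34, limma adjusted p = 0.0663). The relations of Dbp, Nr1d1, Nr1d2 and Per3 with one another and with Arntl still passed, with r of 0.78 for Dbp and Nr1d1 and -0.62 for Dbp and Arntl. The batch difference still passed for Per1 with Dbp (limma adjusted p = 0.00800), Per3 (limma adjusted p = 0.0109) and Nr1d2 (limma adjusted p = 0.0411), but not with Nr1d1 (limma adjusted p = 0.0564).

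**Figure D5:**
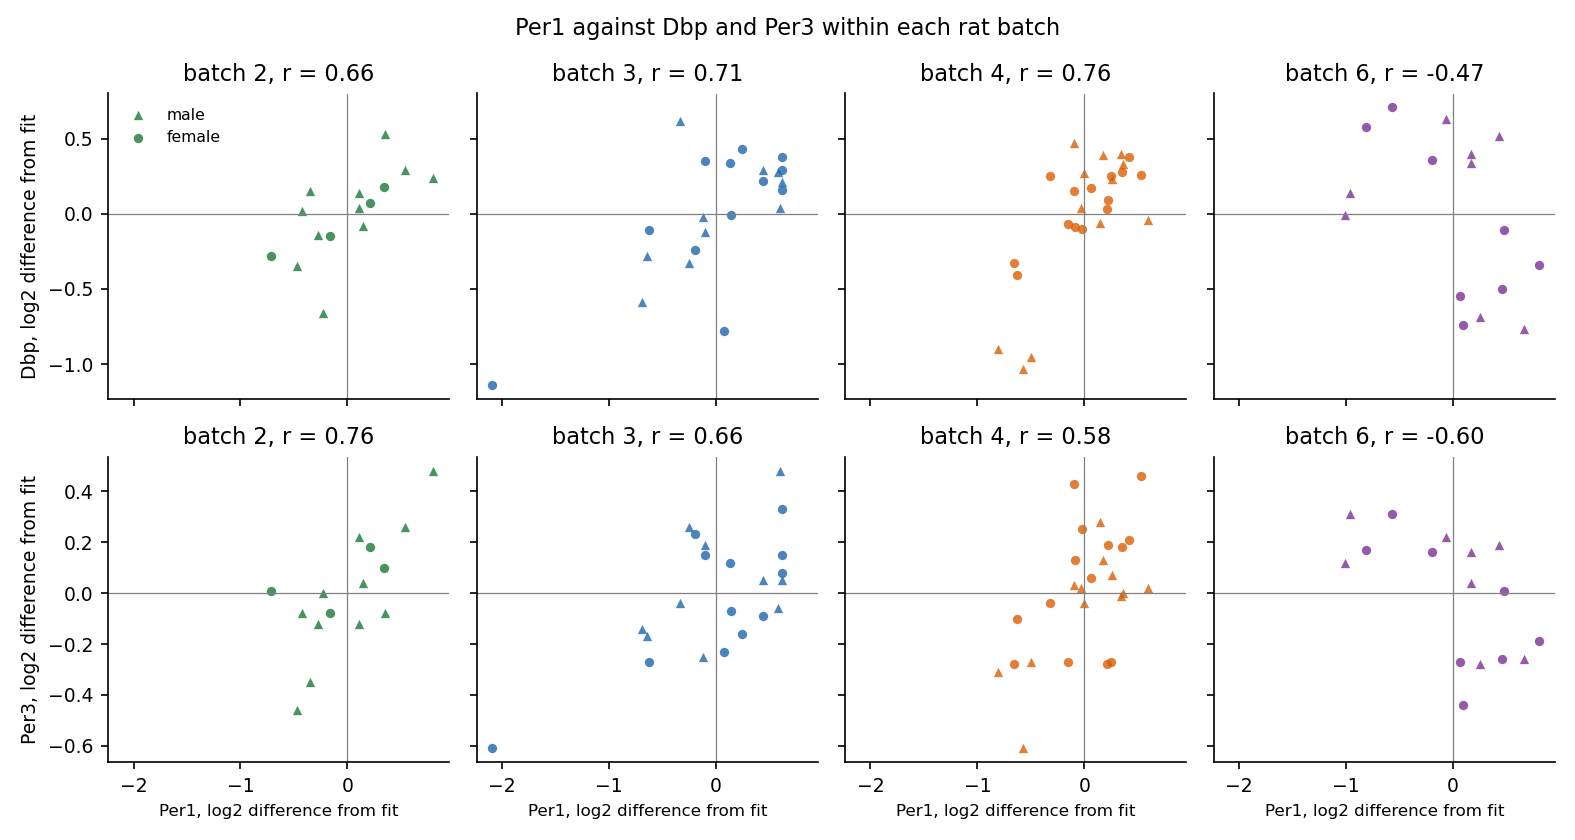
Dbp (upper row) and Per3 (lower row) against Per1 within batches 2, 3, 4 and 6, each as the log2 difference from the value fitted for sex and batch. Triangles are males and circles females. The points rise to the right in batches 2, 3 and 4 and fall in batch 6, with r of -0.47 and -0.60 there, and the circle far to the left in batch 3 is replicate 9.

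The genes of the table whose pattern was most like that of each clock gene were the 3 with the largest positive and the 3 with the largest negative moderated t after sex and batch, over 80 rats. Only identifiers are given for them, since no symbols were paired with the table. For Per1 the closest gene was not one of the 9 genes, and among its 382 positively related genes Per2 was 112th. A total of 5 genes outside the set stood in the lists of more than 1 clock gene. The most frequent, in 4 lists, was ENSRNOG00000042717, first for Dbp (r = 0.92) and for Nr1d1 (r = 0.88), second for Nr1d2 (r = 0.77) and second on the negative side for Arntl (r = -0.64). It had r = 0.01 with Per2, and its SD among rats was 0.84, above that of any of the 9 genes. ENSRNOG00000026704 was first for Per3 (r = 0.79) and the third for Nr1d2 (r = 0.75). On the other side, ENSRNOG00000003029 was the most negatively related gene for Per3 (r = -0.67) and the most positively related for Arntl (r = 0.60). ENSRNOG00000007364 was negatively related to Nr1d2 (r = -0.78) and Per3 (r = -0.67).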

How the data were processed

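RNA from orbitofrontal cortex of HS rats was sequenced as single-end reads. Per the paper's methods and the submitters' processing notes, the authors trimmed reads with cutadapt, estimated counts per gene with RSEM against the Ensembl rat transcriptome, applied an upper quartile adjustment with DESeq2 and removed some samples. The notes name the build Rnor_6.0. Tool versions are not given in the sources used here. The deposited log2 values are log2 of the scaled count plus 1, and turned back they lay within a relative 3.98e-06 of whole numbers. The labels listed 88 samples, of which 8 were marked as removed and had no column. Depth was inferred from the smallest step between values of a library. A library's replicate number follows accession order and names it only. Nothing further states how rats of a batch relate, so each rat is 1 sample.

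Values of all 17123 genes were fitted with limma 3.58.1 (mean trend) in R 4.3.3, with Benjamini-Hochberg adjustment over all genes and a threshold of 0.05. Batch was tested with sex in the model, sex with batch, and relations with both. Permutations used numpy 2.4.6 under Python 3.11.15. Scripts were tested on simulated data. Alternatives were a pseudocount of 10, a mean of at least 3, quantile normalization, array weights, terms for depth, column stretch or 20 principal components (a covariate set of the study's mapping), single batches and sexes, batches left out, and ranks. All 9 clock genes were named by rule. The genes and lists were chosen with earlier results of these data known. Lists of further clock genes, of stimulus- and glucocorticoid-responsive genes and of cell type markers were set by symbol and not analysed here, because the identifiers could not be paired with symbols. Promoter sequences are RefSeq's (GRCr8), a newer assembly than the authors' build.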

Additional observations from a re-analysis of the deposited data

Results flagged for a closer look

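The relation of Per1 to 4 clock genes differed between rat batches by a test of the difference itself. The larger limma adjusted p of the 2 directions was 0.00137 for Dbp, 0.00177 for Per3, 0.0103 for Nr1d2 and 0.0155 for Nr1d1. When each of the 16 rats of batch 6 was left out in turn, the r within batch 6 lay between -0.55 and -0.37 for Dbp, -0.66 and -0.54 for Per3, -0.60 and -0.42 for Nr1d2 and -0.53 and -0.32 for Nr1d1. The largest limma adjusted p of these fits was 0.0127 for Dbp, 0.0176 for Per3 and 0.0476 for Nr1d2. For Nr1d1 the call was lost without replicate 7 (limma adjusted p = 0.0714), replicate 9 (limma adjusted p = 0.133) or replicate 12 (limma adjusted p = 0.0672) of batch 6. With a pseudocount of 10 the limma adjusted p was 0.00143 for Dbp, 0.00193 for Per3, 0.0106 for Nr1d2 and 0.0160 for Nr1d1, and with quantile normalization it was 0.000913, 0.00116, 0.00840 and 0.0249. These alternatives, like the test, were chosen after seeing the data.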

How the results depend on the processing

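A pseudocount of 10, the filter on a mean of at least 3, quantile normalization and a depth term left all 36 pair calls as they were, as did leaving out the library with the most genes at 0 or the rat of batch 5. Single batches gave fewer calls at their smaller size. The count of clock genes differing between batches was 7, and 4 with the column stretch term, 4 without rat batch 6, 4 in females alone and 0 with 20 principal components. Those components came from the same table, in which 64.7% of genes differed between batches, and were added beside the batch terms. They can take up the batch differences themselves, so the 0 cannot decide whether these hold. The count of pairs was 23, and 14 with 20 principal components, 10 among males and 13 among females, while fits to single batches 2, 3, 4 and 6 found 0, 10, 12 and 3 pairs. The components can also take up variation that the pairs share, so the 14 cannot decide which relations hold. The r between the arms was -0.54 within batch 2 and -0.91 within batch 6, against -0.71. The sign turned in batch 6 alone for Per1 with Per3 (-0.60, limma adjusted p = 0.170), Dbp (-0.47, limma adjusted p = 0.353) and Nr1d1 (-0.43, limma adjusted p = 0.383) and for Nr1d1 with Npas2 (0.15, limma adjusted p = 0.848). It turned for Nr1d1 with Clock with 20 principal components (0.11, limma adjusted p = 0.890). The causes were not tested. Leaving out replicate 9 of batch 3, chosen after seeing the data, gave 7 genes for batch, 0 for sex, 19 pairs and an r between the arms of -0.66.

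No paired analysis was possible because no label links an animal of one batch to an animal of another. The time of collection of each brain is not given in the sources used here, and the lowest scaled count of any clock gene in any library was 308.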

Other observations

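The single rat of batch 5, a female that enters no batch comparison, had the lowest Per3 of the 80 libraries (308 scaled counts, 8.27 on the log2 scale). Counting from the lowest, it was 5th in Nr1d1 (9.75), 6th in Nr1d2 (10.92), 10th in Dbp (10.73), 14th in Per2 (10.62) and 16th in Per1 (10.81). It was 77th in Arntl (9.78), 70th in Clock (10.88) and 46th in Npas2 (10.94).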
